A study of Mus musculus with 8 samples.

Results

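The antioxidant enzymes and NRF2 target genes described here are 10 genes read by 14 probe sets of an Affymetrix mouse array, out of 45037 probe sets tested. The probe sets were picked by their IDs, with gene names from the array's annotation. No value entered this rule, but the genes were chosen with earlier results of these data known. Prdx2, Cat, Sod2 and Srxn1 have 2 probe sets each, and Prdx1, Gpx1, Gpx4, Sod1, Gclm and Nqo1 have 1 each. All values are from whole blood drawn from the vena cava of mice. The 4 hypoxia arrays came from mice under normobaric hypoxia, in a closed chamber whose oxygen was brought down from 21% to 8% in 14 days, with blood taken after 15 days, and 500 µl of it used for RNA. The other 4 arrays came from control animals at room condition, with 100 µl of blood per sample, so hypoxia and the larger blood volume cannot be told apart. Strain, sex and age are not given in the sources used here, and neither group is stated to carry an allele or agent. Samples are numbered 1 to 4 in each group, but are not stated to be separate animals, so p-values speak only for the spread among these 8 samples.

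Oxygen metabolism yields superoxide, which the superoxide dismutases turn into hydrogen peroxide. Catalase, the glutathione peroxidases and the peroxiredoxins then remove the peroxide. NRF2 is a transcription factor held down by KEAP1 until oxidants or electrophiles release it. It then binds antioxidant response elements in genes such as Nqo1, Gclm, Srxn1 and Prdx1. Red cells carry much catalase, glutathione peroxidase and peroxiredoxin 2, since their hemoglobin is a steady source of superoxide, and young red cells (reticulocytes) still hold the messenger RNA for them.

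The letters upstream of the genes are shown for Prdx1, Gclm and Srxn1, NRF2 targets whose windows held a match to a searched motif. The windows of the other genes, with Sod1 and Nqo1 among them, are not printed. No link between matches and changes in hypoxic blood was tested. All 10 genes had at least 1 upstream window of 250 bases in RefSeq (build GRCm38.p6), and 13 windows were searched on both strands. The searched motifs were the antioxidant response element core TGACNNNGC, which is present in 10.2% of 32851 such windows of all genes, and the AP-1 site TGACTCA, present in 4.46%. The core was found in 3 of the 13 windows, those of Prdx1, Gclm and Sod1, and the AP-1 site in 2, of Prdx1 and Srxn1. Several of the 13 windows belong to Gpx4, and some of these overlap, so the 13 are not all separate regions. Capitals mark the matches, read on either strand, and each window ends at the base before the annotated start. In the Prdx1 window, chr4:116685349-116685598 on the + strand, the match at 133 bases before the start is both a core and an AP-1 site, and a second AP-1 site lies at 237 bases. The Gclm window is chr3:122245307-122245556 (+), with its core at 134 bases. The Srxn1 window is chr2:152105274-152105523 (+), with AP-1 sites at 102 and 45 bases and no match to the searched core TGACNNNGC. Other forms of the element were not searched.
Prdx1: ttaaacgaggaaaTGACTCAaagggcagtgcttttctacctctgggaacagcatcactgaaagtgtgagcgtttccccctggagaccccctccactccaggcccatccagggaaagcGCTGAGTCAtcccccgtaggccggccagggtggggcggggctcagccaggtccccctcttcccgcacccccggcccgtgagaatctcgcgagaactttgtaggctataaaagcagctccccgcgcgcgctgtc
Gclm: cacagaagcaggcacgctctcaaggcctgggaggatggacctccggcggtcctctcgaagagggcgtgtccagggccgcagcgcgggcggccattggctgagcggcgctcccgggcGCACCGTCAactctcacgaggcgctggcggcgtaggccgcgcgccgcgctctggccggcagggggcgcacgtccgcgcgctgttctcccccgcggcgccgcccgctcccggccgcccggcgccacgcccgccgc
Srxn1: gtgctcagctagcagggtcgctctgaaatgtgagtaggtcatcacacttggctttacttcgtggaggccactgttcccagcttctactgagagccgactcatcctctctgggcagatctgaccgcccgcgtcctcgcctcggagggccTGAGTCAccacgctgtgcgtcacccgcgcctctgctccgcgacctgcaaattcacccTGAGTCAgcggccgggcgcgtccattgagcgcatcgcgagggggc
A match is only a run of letters, and neither motif was found in the windows of Prdx2, Cat, Gpx1, Gpx4, Sod2 or Nqo1. Sites outside these 250 bases were not searched, so a window without a match does not show that the gene lacks the element.

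Some facts of the arrays stand beside every result here. The deposited intensities are linear, and their mean without the lowest and highest 2% of values was 500.0 on every array. No label or file header states the step behind these values. The median intensity per array was 230 to 245 in hypoxia and 163 to 202 in control. The brightest 500 probe sets held 62.4% to 70.3% of the signal in hypoxia and 43.0% to 48.0% in control. The hybridization controls, foreign RNA added to each sample, were higher by 0.94 log2 units in hypoxia (exact permutation p = 0.0286, the smallest that 4 against 4 arrays allow). The 3' minus 5' log2 difference of Actb, a sign of RNA quality, was 2.26 to 2.45 in hypoxia and 1.89 to 2.23 in control (difference 0.33, exact permutation p = 0.0286), and its part in the results, such as unequal changes of 2 probe sets of a gene, was not tested. The transferrin receptor Tfrc, which immature red cells carry for iron uptake, had 3' intensities of 751 to 1863 in hypoxia and 194 to 484 in control. Beyond the members and the array's control probe sets, probe sets were not named here, so marker lists of blood cells were not used and the part of cell composition in these results was not tested. In whole blood, more cells of a type and more RNA per cell cannot be told apart.

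Most of the peroxide-removing and NRF2 target transcripts were higher in hypoxic blood, and Srxn1 fell at 1 of its probe sets. At an adjusted p under 0.05 (limma with Benjamini-Hochberg adjustment over all 45037 probe sets), 9 of the 14 probe sets rose, 1 fell and 4 did not pass. Of all probe sets tested, 6.25% were called. The 9 rises cover 7 genes: Prdx2, Prdx1, Cat, Gpx1, Sod2, Gclm and Nqo1. Rises made up 3.65% and falls 2.6% of all probe sets. The members are bright, with 12 of 14 in the brightest 10% of probe sets, where 20.0% rose and 12.9% fell. In 11 members every hypoxia array lay above every control array and in 1 every hypoxia array lay below, whereas such separation held for 20.9% of all probe sets (10.5% with hypoxia higher and 10.5% with it lower). The median difference, hypoxia minus control, was 2.29 log2 units over the 14 members and 0.19 over all probe sets.

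**Figure D1:**
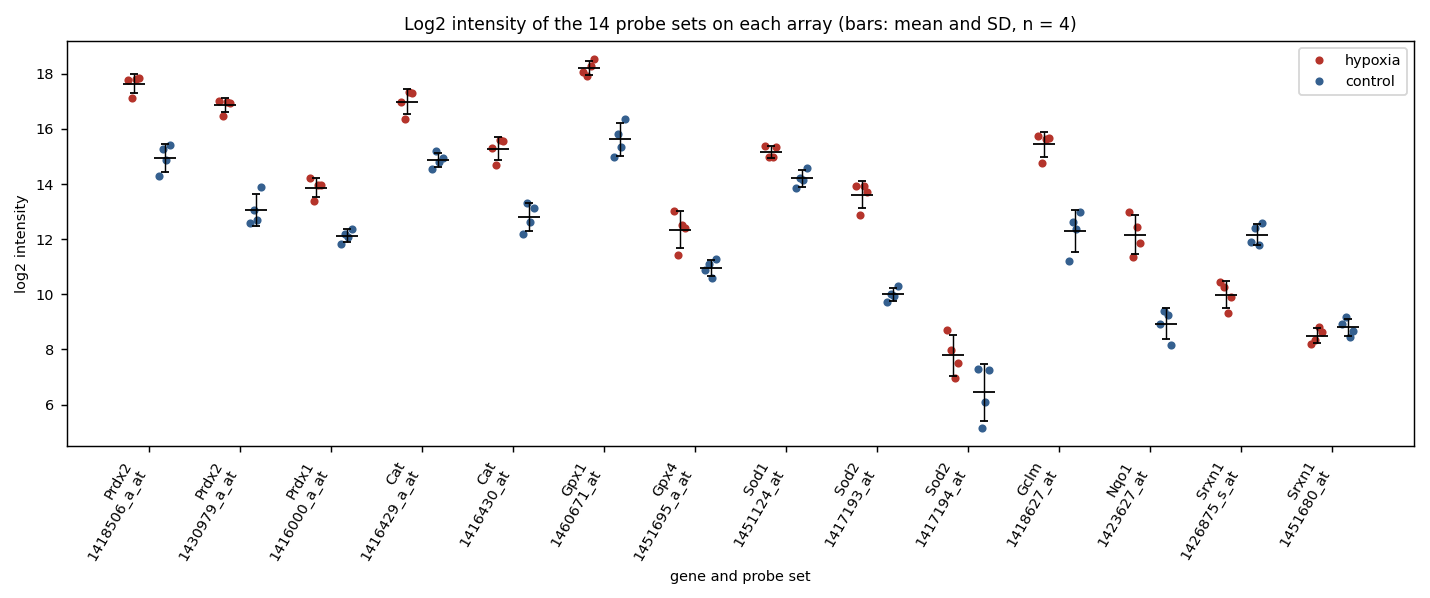
Log2 intensity (vertical axis) of the 14 probe sets (horizontal axis) on each hypoxia array (red, left) and control array (blue, right), with group mean and SD (n = 4). The groups are separate for 12 probe sets and overlap for the second Sod2 and the second Srxn1 probe set, and the first Srxn1 probe set is the 1 with every hypoxia array below every control array.

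The scaling of the arrays set the size of many of these differences. Quantile normalization, which forces every array to the same distribution, left 6 rises among the members, and centring on the hybridization controls also left 6. Of all probe sets, 2.72% rose and 2.36% fell under the first, and 1.32% rose and 13.6% fell under the second. Both settings kept the rises of the second Prdx2 probe set, the first Sod2 probe set, Gclm and Nqo1, and the fall of the first Srxn1 probe set. The authors' deposited table, a significance analysis made from other values of the same arrays, listed 13 of the 14. It gave 10 of them as higher and 2 as lower at a q-value under 5%, where 20.6% and 41.1% of all listed probe sets were higher and lower.

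**Figure D2:**
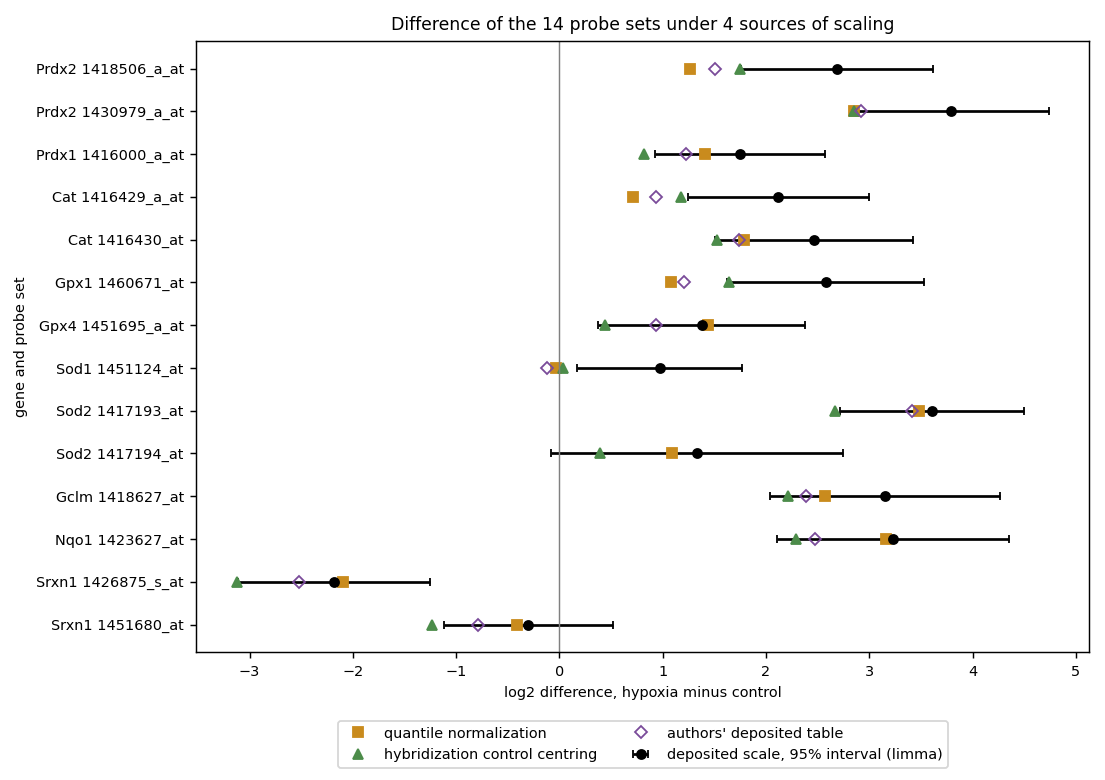
Log2 difference, hypoxia minus control (horizontal axis), of each probe set (vertical axis) on the deposited scale with its 95% interval from limma, after quantile normalization, after centring on the hybridization controls, and in the authors' deposited table. Sod1 lies at 0.97 on the deposited scale and at -0.033, 0.031 and -0.12 in the other 3, while the first Sod2 probe set lies between 2.67 and 3.61 in all 4.

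Among the peroxiredoxins, Prdx2 rose by more than Prdx1 on the deposited scale. Prdx2 encodes the abundant peroxiredoxin of red cells. It was read by 2 probe sets, called the first and the second here, as for Cat, Sod2 and Srxn1, in the order of the plots, which carry all IDs. The second Prdx2 probe set (1430979_a_at) had intensities of 133210, 90976, 129186 and 126305 in hypoxia 1 to 4, against 6196, 8625, 6602 and 15156 in control 1 to 4. Every hypoxia array was far above the highest control, and hypoxia 2 was the lowest of its group. The rise was 13.9-fold, or 3.79 log2 units (SE 0.41, adjusted p = 0.0119 by limma), and with any 1 array left out the adjusted p stayed between 0.0179 and 0.0439. Its difference stood at percentile 99.6 of all probe sets.

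The first Prdx2 probe set had 225811, 143355, 232528 and 235041 in hypoxia 1 to 4, against 19863, 39636, 30132 and 43691 in control 1 to 4. These groups were separate as well, with a rise of 6.43-fold, or 2.68 log2 units (SE 0.41, adjusted p = 0.0154 by limma). Its call was lost after quantile normalization, which lowered the difference to 1.27 (adjusted p = 0.0867), and without control 3 (2.66, adjusted p = 0.0515). The authors' deposited table gave 2.92 for the second probe set and 1.50 for the first, each with a q-value of 0%. The probe sets of Prdx2 thus rose unequally, the brighter first probe set by less, and the part of saturation in this was not tested. Their within-array log2 ratio, first over second probe set, was 0.79 ± 0.11 in hypoxia and 1.90 ± 0.35 in control (SD, n = 4 each), a difference of -1.11 (SE 0.18, exact permutation p = 0.0286, adjusted p = 0.0381 over the 8 ratios tested).

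Prdx1 encodes a cytosolic peroxiredoxin that is also an NRF2 target. Its probe set (1416000_a_at) had 18978, 10576, 15987 and 15855 in hypoxia 1 to 4, against 3640, 4678, 4357 and 5329 in control 1 to 4. Even the lowest hypoxia array lay clearly above the highest control. The rise was 3.37-fold, or 1.75 log2 units (SE 0.36, adjusted p = 0.0322 by limma). On the deposited scale it was the smallest of the 9 rises. The call held after quantile normalization (1.41, adjusted p = 0.0463) and was lost after median centring (1.41, adjusted p = 0.0607), after centring on the hybridization controls (0.81, adjusted p = 0.218) and without any 1 array other than hypoxia 2 (differences of 1.64 to 1.84, adjusted p = 0.0586 to 0.0882). The ratio of Prdx2 (first probe set) to Prdx1 rose by 0.93 log2 units as deposited (SE 0.16, exact p = 0.0286, adjusted p = 0.0381), but quantile normalization turned this to -0.14 (exact p = 0.4), so for this probe set the order of the 2 genes depended on the scaling. The second Prdx2 probe set had a larger difference than Prdx1 in other settings too, at 2.85 against 1.41 after quantile normalization, 2.86 against 0.81 after centring on the hybridization controls and 2.92 against 1.22 in the authors' deposited table, but its ratio to Prdx1 was not tested.

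Catalase, the peroxisomal enzyme that splits hydrogen peroxide to water and oxygen, was higher at both of its probe sets. At its first probe set (1416429_a_at) Cat had 129557, 83744, 166989 and 159686 in hypoxia 1 to 4, against 24108, 37344, 28446 and 31842 in control 1 to 4. At its second probe set (1416430_at) Cat had 40824, 26127, 49752 and 47800 in hypoxia 1 to 4, against 4648, 10201, 6346 and 9011 in control 1 to 4. Both pairs of groups were separate, with hypoxia 2 lowest and hypoxia 3 highest among the hypoxia arrays. The rises were 4.34-fold at the first Cat probe set (2.12 log2 units, SE 0.38, adjusted p = 0.0230) and 5.53-fold at the second Cat probe set (2.47, SE 0.42, adjusted p = 0.0198), both by limma.

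The 2 Cat probe sets also changed unequally, by a small amount, the brighter first probe set again rising by less. Their ratio, first over second, was 1.71 ± 0.04 in hypoxia and 2.06 ± 0.26 in control on the log2 scale (SD, n = 4 each), a difference of -0.35 (SE 0.13, exact permutation p = 0.0286, adjusted p = 0.0381), which quantile normalization moved to -1.07 (exact p = 0.0286). Under that normalization the first Cat probe set was no longer called (0.71, adjusted p = 0.248), while the second Cat probe set was (1.79, adjusted p = 0.0379). Centring on the hybridization controls ended both calls (1.18 with adjusted p = 0.0864, and 1.53 with adjusted p = 0.0544). The call of the first Cat probe set was also lost without any 1 control array, hypoxia 1 or hypoxia 3 (adjusted p = 0.0535 to 0.0696), and that of the second Cat probe set without control 1 (0.0603), control 3 (0.0626) or hypoxia 3 (0.0536). The authors' deposited table gave 0.94 with a q-value of 0.0259% and 1.74 with a q-value of 0%.

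Gpx1, the cytosolic selenium-containing glutathione peroxidase that is abundant in red cells, was the brightest member on every array. Its probe set (1460671_at) had 277093, 248893, 317151 and 378535 in hypoxia 1 to 4, against 32299, 57569, 41519 and 84303 in control 1 to 4. The hypoxia arrays all lay above the controls, which themselves varied widely. Gpx1 rose 5.97-fold, or 2.58 log2 units (SE 0.42, adjusted p = 0.0176 by limma). The call was lost after quantile normalization (1.08, adjusted p = 0.119) and without control 1 (2.36, adjusted p = 0.0529), control 2 (2.64, adjusted p = 0.0529) or control 3 (2.48, adjusted p = 0.0584). The authors' deposited table gave 1.20 with a q-value of 0.0153%.

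Gpx4, which reduces lipid peroxides in membranes and guards cells against ferroptosis, missed the threshold. Its probe set (1451695_a_at) had 8326, 2730, 5794 and 5409 in hypoxia 1 to 4, against 1873, 2173, 1546 and 2478 in control 1 to 4. The groups were separate, but hypoxia 2 came close to the highest control. The difference was 1.38 log2 units (95% interval 0.37 to 2.38, adjusted p = 0.0962 by limma). It passed with a trended and robust prior (adjusted p = 0.0021) and with an offset of 100 before log2 (adjusted p = 0.0192), and the authors' deposited table gave 0.93 with a q-value of 0.721%. The ratio of Gpx1 to Gpx4 differed by 1.20 (SE 0.37) with exact permutation p = 0.0571 and adjusted p = 0.0653, and by -0.35 after quantile normalization (exact p = 0.343).

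Among the superoxide dismutases, the first Sod2 probe set was far ahead of Sod1. Sod2 is the manganese enzyme of mitochondria. Its first probe set had intensities of 15444, 7572, 15435 and 13374 in hypoxia 1 to 4, against 845, 1042, 979 and 1276 in control 1 to 4. Controls were tight, and the lowest hypoxia array was still several times above them. The rise was 12.2-fold, or 3.61 log2 units (SE 0.39, adjusted p = 0.0119 by limma). With any 1 array left out the adjusted p stayed between 0.0167 and 0.0439, and the authors' deposited table gave 3.41 with a q-value of 0%.

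Sod1 (1451124_at), the copper-zinc enzyme of the cytosol, had 42780, 32513, 31946 and 41742 in hypoxia 1 to 4, against 14761, 19165, 18330 and 24384 in control 1 to 4. The groups were separate on the deposited scale, with a difference of 0.97 log2 units (95% interval 0.17 to 1.77, adjusted p = 0.131 by limma). Its direction rested on the scaling, at -0.033 after quantile normalization (adjusted p = 0.965) and -0.12 in the authors' deposited table (q-value of 16.6%). It passed the test with a trended and robust prior (adjusted p = 0.00205) and with an offset of 100 (0.96, adjusted p = 0.039). The ratio of Sod1 to the first Sod2 probe set, which no centring of an array can move, was 1.57 ± 0.44 in hypoxia and 4.20 ± 0.06 in control (SD, n = 4 each). It fell by 2.64 log2 units (SE 0.22, exact permutation p = 0.0286, adjusted p = 0.0381), a 6.22-fold shift toward the first Sod2 probe set. After quantile normalization it fell by 3.51 (exact p = 0.0286). The ratio of Sod1 to the second Sod2 probe set was not tested.

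The second Sod2 probe set (1417194_at) was dim. It had 414, 255, 124 and 180 in hypoxia 1 to 4, against 157, 36, 68 and 154 in control 1 to 4. The groups overlapped, and all control values lay below their arrays' median intensity. Its difference was 1.33 log2 units (95% interval -0.08 to 2.74, adjusted p = 0.219 by limma), and it was the 1 member the authors' deposited table did not list. The ratio of the first probe set to the second Sod2 probe set rose by 2.27 (SE 0.71, exact permutation p = 0.0286, adjusted p = 0.0381). Since the second probe set was not shown to be above background, this ratio says only that the values of the second did not follow those of the first, and its size depended on the offset added before log2 (2.75 with an offset of 100).

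Of the NRF2 targets, Gclm and Nqo1 rose, as did Prdx1, described above. Gclm encodes the modifier subunit of glutamate-cysteine ligase, which makes the first intermediate of glutathione. Its probe set (1418627_at) had 54239, 28006, 50950 and 51950 in hypoxia 1 to 4, against 2373, 6336, 5277 and 8112 in control 1 to 4. All hypoxia arrays were above all controls, and control 1 was well below the other controls. The rise was 8.89-fold, or 3.15 log2 units (SE 0.49, adjusted p = 0.0161 by limma). Its call held under both other scalings above and was lost without control 3 (3.17, adjusted p = 0.0515).

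Nqo1 (1423627_at), a quinone reductase and a classical marker of NRF2 activity, had 8173, 2626, 5518 and 3765 in hypoxia 1 to 4, against 492, 669, 613 and 286 in control 1 to 4. The groups were separate, with a wide spread among the hypoxia arrays. The rise was 9.38-fold, or 3.23 log2 units (SE 0.49, adjusted p = 0.0155 by limma). Its call was lost without control 1, where the difference stayed at 3.23 (adjusted p = 0.0504). The authors' deposited table gave 2.39 for Gclm and 2.48 for Nqo1, each with a q-value of 0%. The ratio of Gclm to Nqo1 differed by -0.077 log2 units (SE 0.58, exact permutation p = 0.943), and by -0.60 after quantile normalization (exact p = 0.286), and the error leaves room for a sizeable difference between them.

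Srxn1 encodes sulfiredoxin, which restores overoxidized peroxiredoxins, and it was the only member gene with a fall. Its first probe set (1426875_s_at) had 1384, 1235, 647 and 948 in hypoxia 1 to 4, against 3821, 5387, 3525 and 6153 in control 1 to 4. Every hypoxia array was below every control. The level fell by 2.18 log2 units (SE 0.41, adjusted p = 0.0249 by limma), or 4.54-fold. The call held under quantile normalization (-2.10, adjusted p = 0.0259), median centring and centring on the hybridization controls (-3.12, adjusted p = 0.0139). It was lost without any 1 control array, hypoxia 3 or hypoxia 4 (differences of -2.31 to -1.97, adjusted p = 0.0507 to 0.0787).

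The second Srxn1 probe set (1451680_at) had 296, 328, 451 and 394 in hypoxia 1 to 4, against 484, 577, 348 and 407 in control 1 to 4. These groups overlapped, with a difference of -0.30 log2 units (95% interval -1.12 to 0.52, adjusted p = 0.643 by limma). In the authors' deposited table both were lower, by -2.53 with a q-value of 0% for the first and -0.79 with a q-value of 0.0259% for the second. The log2 ratio of the first to the second was 1.48 ± 0.76 in hypoxia and 3.37 ± 0.40 in control (SD, n = 4 each). It fell by 1.88 (SE 0.43, exact permutation p = 0.0286, adjusted p = 0.0381), so the 2 probe sets of Srxn1 did not move alike. In Affymetrix naming, the ending _s_at marks probes that can match transcripts of more than 1 gene.

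**Figure D3:**
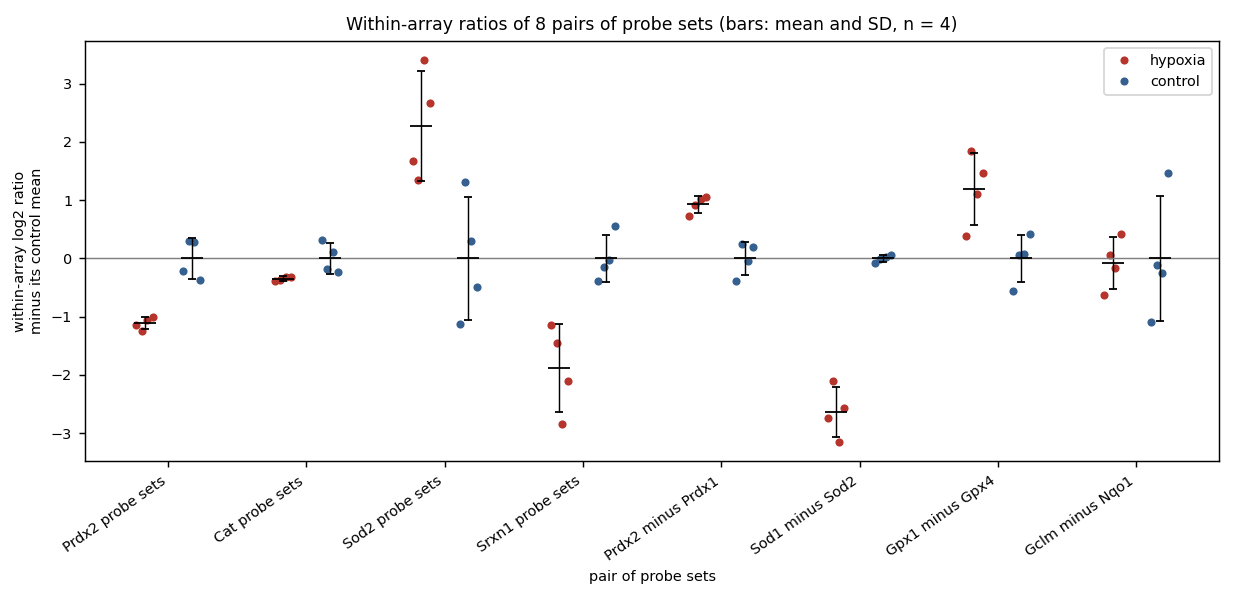
Within-array log2 ratio of 8 pairs of probe sets, less its mean in control (vertical axis), for hypoxia (red, left) and control (blue, right) arrays, with mean and SD (n = 4). Hypoxia and control are separate for 6 pairs, the largest shift being the fall of Sod1 against the first Sod2 probe set by 2.64. They overlap for Gpx1 against Gpx4 and for Gclm against Nqo1.

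The members also varied together among the arrays of a group. Hypoxia 2 was the lowest hypoxia array in 10 of the 14 members, among them all 9 that rose. It was lowest in 24.5% of all probe sets and in 59.3% of all those that rose. Control 1 was the lowest control array in 9 members, 8 of which rose, against 21.9% of all probe sets and 42.4% of all those that rose. Nqo1 was the exception, with control 4 lowest. Hypoxia 2 had a mean Pearson r of 0.70 to the other hypoxia arrays, taken over probe sets that are not independent of each other. Such an r does not register a shift of a whole array. Among the hypoxia arrays, hypoxia 2 had the lowest share of signal in the brightest 500 probe sets (62.4%, against 65.4% to 70.3%). Control 1 had the lowest such share among controls (43.0%, against 45.2% to 48.0%). Hypoxia 2 also had the lowest hybridization controls of its group (17.84 on the log2 scale, against 18.05 to 18.49). Control 1 did not (17.19), as control 2 (17.05) and control 4 (17.12) were lower. The part of these measures in the low values was not tested. Without hypoxia 2 the count of members that rose was 9, without control 1 it was 4 and without control 3 it was 3, and the share of all probe sets that rose was 3.04%, 0.973% and 0.853% in these 3 fits, so the calls fell over the whole array.

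**Figure D4:**
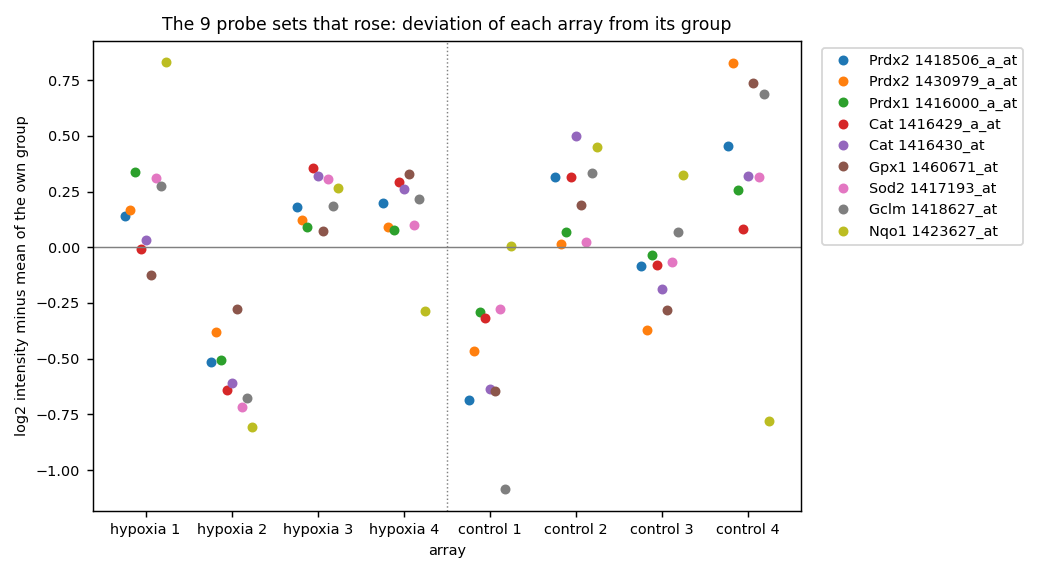
Log2 intensity less the mean of the own group (vertical axis) for the 9 probe sets that rose, on each array (horizontal axis). All 9 points of hypoxia 2 lie below 0, and 8 of 9 points of control 1 do.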

How the data were processed

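Whole blood RNA of 8 samples was hybridized to Affymetrix arrays. The deposited value table holds linear intensity values for each array, and GCRMA, RMA and Partek are named with no role per the submitters' processing notes. The deposited comparison by the authors (SAM) gives a score, a log2 difference, fold ratios and a q-value in percent per probe set, per the file headers, and was copied without refitting. Intensities below 1 were set to 1 (14 values), log2 was taken, and the 64 control probe sets were set aside. For the 45037 remaining probe sets a limma model was used (limma 3.58.1, R 4.3.3, constant prior, no covariate), with differences being hypoxia minus control. Within-array ratios were tested with two-sided exact permutation tests (scipy 1.17.1), with Benjamini-Hochberg adjustment over 8 ratios. The limma fit was tested on simulated data with independent noise at the spread of the controls. That simulation held no shift of whole arrays, unlike the real data. All 14 members are named. The members, ratios and further gene lists were chosen with earlier results of these data known. The further lists of antioxidant genes and cell markers, also those planned, were not analysed here, since only the members and control probe sets carry names. Precision is limited by having 4 arrays per group, and saturation or detection calls were not used here. Alternatives were other scalings, offsets, priors, a filter on dim probe sets, a replicate block and leaving out each array.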

Additional observations from a re-analysis of the deposited data

Results flagged for a closer look

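In 44 groups of 4 values examined (14 members and 8 ratios, each in hypoxia and control), 3 contained 1 value far off the rest, and about 2.2 such groups arise by chance. All 3 were hypoxia 2. Prdx2 stood there at 17.13 on the log2 scale for its first probe set, against 17.78 to 17.84 on the other hypoxia arrays, and at 16.47 for its second, against 16.95 to 17.02. Gclm stood at 14.77, against 15.64 to 15.73. The hybridization controls, which lie outside the comparison of transcripts, were higher in hypoxia by 0.94 log2 units, and their part in the members' differences was measured only by centring on them.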

How the results depend on the processing

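Over 265 refits and copies of single members, 263 kept the direction and 2 did not, both for Sod1 (-0.033 after quantile normalization and -0.12 in the authors' deposited table). The filter on dim probe sets, the trended and robust prior and the replicate block leave a difference unchanged, so they could not turn a direction. The other refits reuse most of the same data, so the count of 263 is no measure of independent support. All probe sets gave 2816 calls as reported. They gave 6722 after centring on the hybridization controls (8.82% of them rises), 1482 after centring on Actb (72.5% rises), 7115 with an offset of 100, 4504 with the filter on dim probe sets, 6836 with a trended and robust prior and 12287 in the authors' deposited table at a q-value under 5%. Rises made up 58.3% of calls as reported, 31.1% after median centring and 45.7% with the trended and robust prior. With 1 array left out there were 462 to 2617 calls over all probe sets, 3 to 9 members higher and 0 to 1 lower. The authors' deposited table had 2 members lower. Same-numbered hypoxia and control arrays did not deviate together (correlations of -0.02 to 0.01). With the replicate number as a block no probe set was called by limma: 0 calls (10348 at an unadjusted p under 0.05), with 0 members higher and 0 lower. In the replicate block the paired ratios can reach no exact p below 0.125, which was the value for Prdx2 (-1.11), Cat (-0.35), Sod2 (2.27), Srxn1 (-1.88), Prdx2 minus Prdx1 (0.93), Sod1 minus Sod2 (-2.64) and Gpx1 minus Gpx4 (1.20). Quantile normalization turned Prdx2 minus Prdx1 to -0.14 and Gpx1 minus Gpx4 to -0.35. An offset of 100 gave 1.24 for Gpx1 minus Gpx4 (exact p = 0.0286) and turned Gclm minus Nqo1 to 0.14, which quantile normalization moved to -0.60 (exact p = 0.286). The causes were not tested. With 1 array left out, where no exact p can be below 0.0571, the ratios ran from -1.23 to -1.01 for Prdx2, -0.43 to -0.24 for Cat, 1.90 to 2.71 for Sod2, -2.13 to -1.56 for Srxn1, 0.80 to 1.01 for Prdx2 minus Prdx1, -2.82 to -2.46 for Sod1 minus Sod2, 0.99 to 1.47 for Gpx1 minus Gpx4 and -0.44 to 0.41 for Gclm minus Nqo1.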
